A study of Mus musculus with 9 samples.

Results

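The MYC, MAX and MXD network was followed through naïve and activated B cells as the 10 genes *Myc*, *Mycn*, *Max*, *Mxd1*, *Mxd3*, *Mxd4*, *Mxi1*, *Mnt*, *Mlx* and *Mga*. They were chosen by name from the 17596 genes of the deposited table, and all 10 were found in it. Of these, 9 averaged 1 FPKM or more across the 9 libraries and were tested, as were 10823 genes in all, and *Mycn* was not. RNA was sequenced from primary B cells of the spleen, from mice of 6 to 8 weeks, and the floxed line had been made on the C57BL/6J background. Control mice carried Mb1Cre, a Cre recombinase active in the B cell lineage, and Mct1f/fMb1Cre mice carried the same Cre and a floxed *Mct1* gene, with loxP sites placed at exon 1 and intron 3. On day 0 the cells were naïve (2 libraries per genotype), and on day 3 they had been cultured in RPMI medium with 10 μg/ml LPS plus 50 ng/ml IL-4, which drive proliferation and class switching (2 Mb1Cre and 3 Mct1f/fMb1Cre libraries). The labels name no mouse or litter, so the p-values measure the spread between these samples.

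MAX is the shared partner of this network of basic helix-loop-helix leucine zipper proteins. Dimers of MYC or N-MYC with MAX bind E-box sequences and activate genes of growth, nucleotide synthesis and ribosome production, whereas the MXD proteins (MXD1, MXI1, MXD3 and MXD4) and MNT compete for MAX and recruit the SIN3 and histone deacetylase corepressors to similar sites. MLX, a MAX-like protein, pairs with some of the same repressors and with the glucose-responsive factors MONDOA and ChREBP, and MGA joins MAX to a Polycomb complex, PRC1.6. In B cells, MYC is known to rise upon mitogen stimulation and to drive growth before division, and several MXD proteins are associated with quiescence or differentiation.

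Values were in FPKM (fragments per kilobase of transcript, relative to the mapped fragments of a library), which are scaled per length, so that levels can be set side by side between genes. *Mct1* is listed as *Slc16a1*. It measured 4.33 and 3.80 FPKM in Mb1Cre and 3.71 and 4.06 FPKM in Mct1f/fMb1Cre cells on day 0, and 22.6 and 23.0 against 10.8, 9.81 and 9.50 FPKM on day 3. The day 3 libraries were thus separated by genotype (log2 difference -1.11, limma adjusted p = 9.07e-06) and the day 0 libraries were not, where the genotype rests on the labels. The value covers the whole gene and does not isolate the deleted segment. All 8 B cell markers were present and lower in every day 3 library than in every day 0 library, with sums of 4447 to 4889 FPKM on day 0 and 2351 to 2436 FPKM on day 3. Of the 8 myeloid markers, all were higher in every day 0 library, with sums of 1020 to 1829 FPKM against 15.5 to 26.2 FPKM on day 3, and none was at 0 in a whole group. The 6 T cell markers (47.6 to 52.3 against 11.3 to 13.6 FPKM) and the 6 erythroid markers (125 to 231 against 4.34 to 7.95 FPKM) were also lower in sum on day 3, when *Hbb-bs* was at 0. Of the 4 NK cell markers, 3 (*Ncr1*, *Klrb1c* and *Nkg7*) were lower and *Gzma* was higher in every day 3 library, and their sum (67.0 to 82.8 against 85.3 to 98.4 FPKM) followed *Gzma*. Of the 4 plasma cell markers, *Xbp1* and *Prdm1* were higher and *Sdc1* was lower in every day 3 library and *Jchain* overlapped between the days, with a sum of 134 to 234 against 321 to 393 FPKM that was mostly *Xbp1* on day 3. The 4 Y-linked genes summed to 74.0 to 95.04 FPKM in all day 3 libraries and to 112 FPKM in Mct1f/fMb1Cre replicate 1 on day 0, and to at most 3.55 FPKM in the other day 0 libraries. Sex and day therefore cannot be told apart in Mb1Cre. In Mct1f/fMb1Cre the day 0 libraries differed in these genes (112 and 3.55 FPKM in sum), so that sex was mixed on day 0. Activation in Mct1f/fMb1Cre, the genotypes on day 0 and the interaction of genotype and day were compared with these libraries. By these genes sex changed with day in both genotypes, but not to the same extent. Sex and the interaction therefore cannot be told apart. In these bulk samples, fewer cells of a type and less RNA per cell cannot be told apart either.

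Before activation, *Max* was the most abundant gene of the network and *Myc* came next. *Max* had 84.8 and 94.8 FPKM in Mb1Cre and 92.2 and 96.2 FPKM in Mct1f/fMb1Cre cells, *Myc* had 58.5 to 71.0 FPKM, and *Mxd4* was the main *Mxd* gene with 43.9 to 46.4 FPKM. *Mnt* (24.1 to 25.3 FPKM) and *Mlx* (22.5 to 25.5 FPKM) followed, and their libraries overlapped in Mb1Cre. Below them, in the same order in both genotypes, were *Mga* (13.8 to 15.6 FPKM), *Mxd1* (10.6 to 13.0 FPKM), *Mxi1* (8.75 to 10.3 FPKM) and *Mxd3* (2.84 to 3.71 FPKM). *Mycn*, the paralogue of *Myc* best known from neural and early lymphoid cells, had at most 0.23 FPKM in any library. On day 3 the order had changed. *Myc* came before *Max* in both genotypes and *Mlx* came next, whereas the fourth place was held by *Mxi1* in Mb1Cre and by *Mxd4* in Mct1f/fMb1Cre cells. *Mxd1* and *Mxd3* overlapped in Mb1Cre on day 3, and in Mct1f/fMb1Cre the libraries of *Mnt* and *Mga*, and of *Mga* and *Mxd3*, overlapped.

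**Figure D1:**
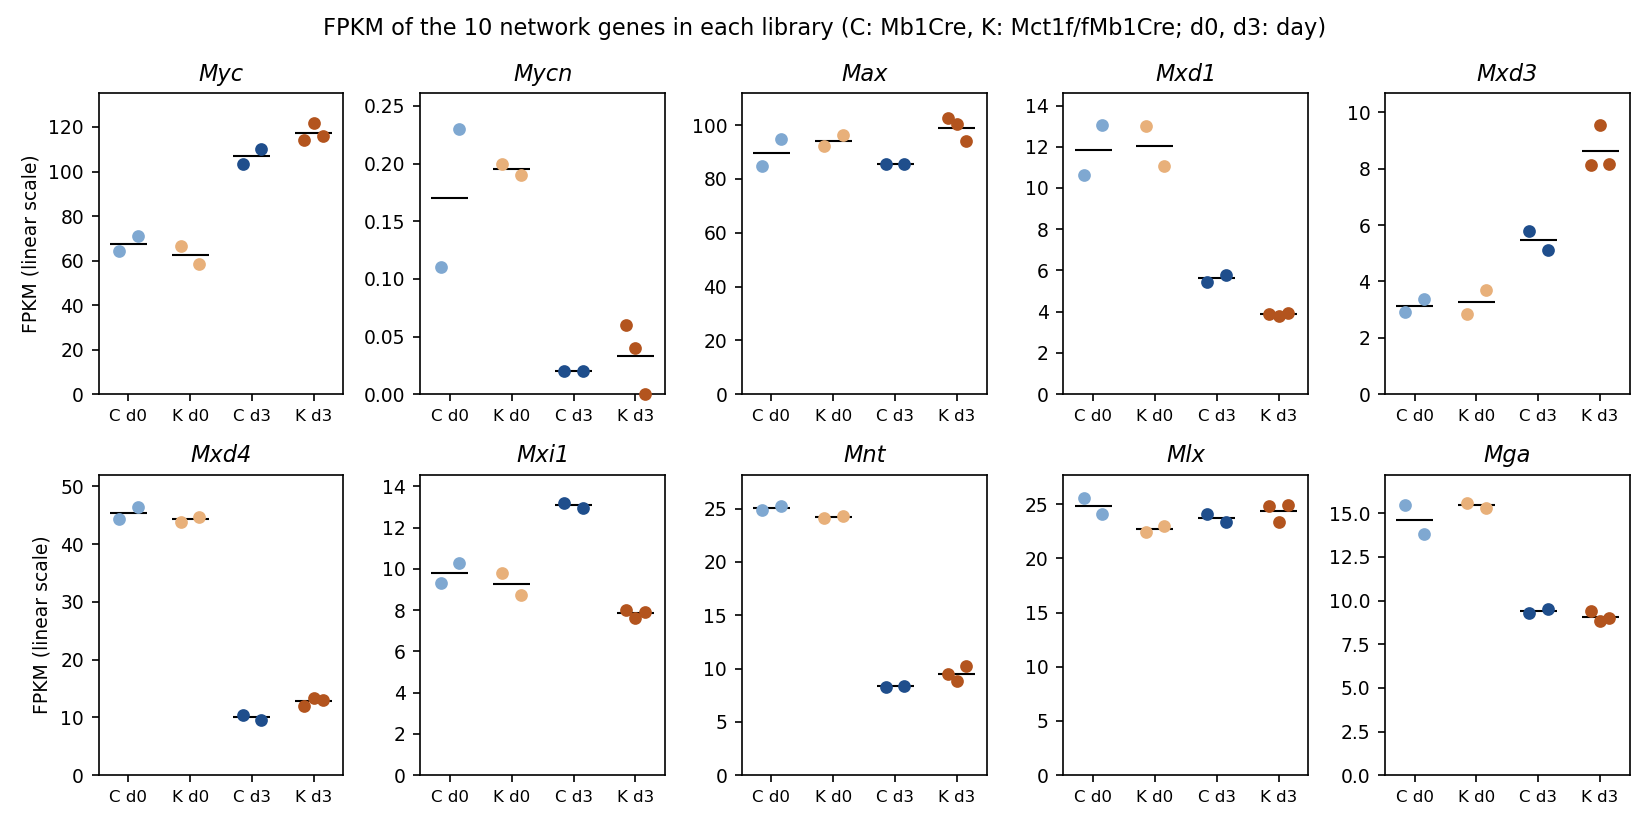
FPKM of each network gene (linear vertical axes that start at 0 and differ between panels) in the 9 libraries, by genotype (C, Mb1Cre; K, Mct1f/fMb1Cre) and day (d0, d3). Points are libraries and black lines group means; *Mxd4* lay between 43.9 and 46.4 FPKM on day 0 and between 9.63 and 13.4 FPKM on day 3, and *Mxi1* on day 3 lay at 12.9 and 13.2 FPKM in Mb1Cre against 7.60 to 8.01 FPKM in Mct1f/fMb1Cre.

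The E-box bound by MAX dimers, CACGTG, was searched in the promoters of the members, since proteins of this network are known to bind the genes of other members. RefSeq promoter windows of GRCm38.p6, from 250 bases before to 50 bases after the start, were matched for 9 of the 10 genes (11 windows, of which 3 for *Mxi1*), and not for *Myc*. CACGTG, which is its own reverse complement, was in a window of 4 members, *Max*, *Mlx*, *Mnt* and *Mxd4*, and in 7.15% of all 32817 windows. It began at -3 in *Max*, -40 in *Mlx*, -123 in *Mnt* and -219 in *Mxd4*, counted from the start site. The stretches of 60 bases around it are shown with the E-box in capitals, on GRCm38.p6 at chr12:76962219-76962278, minus strand (*Max*), chr11:101087223-101087282, plus strand (*Mlx*), chr11:74830774-74830833, plus strand (*Mnt*) and chr5:34187897-34187956, minus strand (*Mxd4*).
Max: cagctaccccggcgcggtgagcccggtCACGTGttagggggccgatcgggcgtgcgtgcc
Mlx: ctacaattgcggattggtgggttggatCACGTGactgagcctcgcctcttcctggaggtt
Mnt: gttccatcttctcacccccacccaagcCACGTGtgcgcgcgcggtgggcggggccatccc
Mxd4: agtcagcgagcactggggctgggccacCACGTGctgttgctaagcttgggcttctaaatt
These matches describe letters in the windows and not binding. Of the 4 genes, *Mnt* and *Mxd4* fell upon activation, and *Max* and *Mlx* did not pass the test.

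Upon activation the same 6 of the 9 members tested were called in both genotypes, by the limits given below. Over all 10823 genes tested, 6258 were called in Mb1Cre and 6120 in Mct1f/fMb1Cre. *Myc* and *Mxd3*, the *Mxd* gene linked to proliferating cells, rose, while *Mxd4*, *Mnt*, *Mxd1* and *Mga* fell. *Mxd4* lost the most, to 22.1% of its day 0 level in Mb1Cre and 28.9% in Mct1f/fMb1Cre. *Max* and *Mlx*, the common partners, did not pass the test, and *Mxi1* passed the adjusted p but not the limit of size. Genes were called where the adjusted p was below 0.05 and the difference in log2(FPKM + 1) exceeded 0.5 in size. In each genotype 2 of the 9 members tested were called higher and 4 lower. Among all tested genes, 24.8% were called higher and 33.0% lower in Mb1Cre, and 23.4% higher and 33.2% lower in Mct1f/fMb1Cre, so that calls in both directions were common in the background. The libraries of both days did not overlap for 8 of the 9 members in each genotype, beside 91.9% of all genes in Mb1Cre and 89.8% in Mct1f/fMb1Cre.

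*Myc* (chromosome 15, 61985341 to 61990361 on GRCm38) had 64.3 and 71.0 FPKM on day 0 against 104 and 110.3 FPKM on day 3 in Mb1Cre, and 66.7 and 58.5 against 114, 122 and 116 FPKM in Mct1f/fMb1Cre. Every day 3 library lay above every day 0 library. The rise was 1.58-fold in Mb1Cre (log2 difference 0.65 ± 0.07 SE, adjusted p = 4.19e-06) and 1.88-fold in Mct1f/fMb1Cre (0.90 ± 0.06, adjusted p = 1.13e-07). *Max*, the obligate partner of MYC, had log2 differences of -0.07 (95% interval -0.20 to 0.07) and 0.07 (-0.05 to 0.19). *Mycn* lay at 0.11 to 0.23 FPKM on day 0 and at 0 to 0.06 FPKM on day 3 and was not tested. The median over all tested genes was -0.12 in Mb1Cre and -0.14 in Mct1f/fMb1Cre, and it moved to -0.31 and -0.30 after scaling of all libraries to an equal sum (total scaling) and to 0.06 in both under median-of-ratios scaling. With it the share of higher genes among all called moved from 42.9% to 32.0% and 55.4% in Mb1Cre, and from 41.4% to 31.7% and 54.9% in Mct1f/fMb1Cre. *Max* and *Mlx* changed sign with these scalings. *Myc* in Mb1Cre had 0.45 under total scaling and 0.50, just short of the limit, under quantile normalization, and was past it in Mct1f/fMb1Cre under all 3 scalings tried.

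Among the repressors, *Mxd4* (chromosome 5, 34176580 to 34187710) had 44.4 and 46.4 FPKM on day 0 against 10.4 and 9.63 FPKM on day 3 in Mb1Cre, and 43.9 and 44.8 against 12.1, 13.4 and 13.0 FPKM in Mct1f/fMb1Cre. The log2 differences were -2.07 ± 0.06 (adjusted p = 8.84e-11) and -1.72 ± 0.06 (adjusted p = 1.68e-10). *Mnt* (chromosome 11, 74830806 to 74845725), which encodes the MAX partner held to be present in resting and cycling cells alike, had 24.9 and 25.3 FPKM on day 0 against 8.29 and 8.35 FPKM on day 3 in Mb1Cre. In Mct1f/fMb1Cre it had 24.1 and 24.3 against 9.50, 8.79 and 10.3 FPKM, so that it kept 33.2% and 39.3% of its day 0 level (log2 differences -1.48 and -1.26, adjusted p = 2.19e-09 and 3.61e-09). Both genes fell under each of the alternatives tried. *Mga*, the scaffold of PRC1.6, fell from 15.4 and 13.8 to 9.28 and 9.51 FPKM in Mb1Cre and from 15.6 and 15.3 to 9.39, 8.81 and 8.99 FPKM in Mct1f/fMb1Cre (-0.59 and -0.71). In Mb1Cre its difference was within the limit under median-of-ratios scaling (-0.39) and quantile normalization (-0.42).

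*Mxd1*, first described in differentiating myeloid cells, had 10.6 and 13.0 FPKM on day 0 against 5.46 and 5.80 FPKM on day 3 in Mb1Cre, and 13.0 and 11.1 against 3.87, 3.80 and 3.96 FPKM in Mct1f/fMb1Cre. It fell by 0.95 and by 1.42 on the log2 scale (adjusted p = 3.03e-06 and 3.85e-08). The 8 myeloid markers fell over the same days (1020 to 1829 FPKM in sum against 15.5 to 26.2 FPKM), and their part in this result was not tested. *Mxd3* went the other way, from 2.90 and 3.38 to 5.80 and 5.11 FPKM in Mb1Cre (1.74-fold, log2 difference 0.64, adjusted p = 2.89e-04) and from 2.84 and 3.71 to 8.12, 9.54 and 8.17 FPKM in Mct1f/fMb1Cre (2.63-fold, 1.17, adjusted p = 8.45e-07). The Mb1Cre difference was within the limit under total scaling (0.48) and with a pseudocount of 5 (0.36). *Mxd3* overlaps *Prelid1*, a mitochondrial protein gene, whose values also rose with activation (log2 differences 1.13 and 1.22), and since strand was not stated in the sources used here, reads of both genes cannot be told apart there. *Mxd1*, *Mxi1*, *Mlx* and *Mga* likewise overlap *Gm38850*, *Gm30541*, *Psmc3ip* and *Gm13998*, of which the table lists *Psmc3ip* (2.15 to 3.03 FPKM on day 0 and 11.1 to 11.8 FPKM on day 3).

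**Figure D2:**
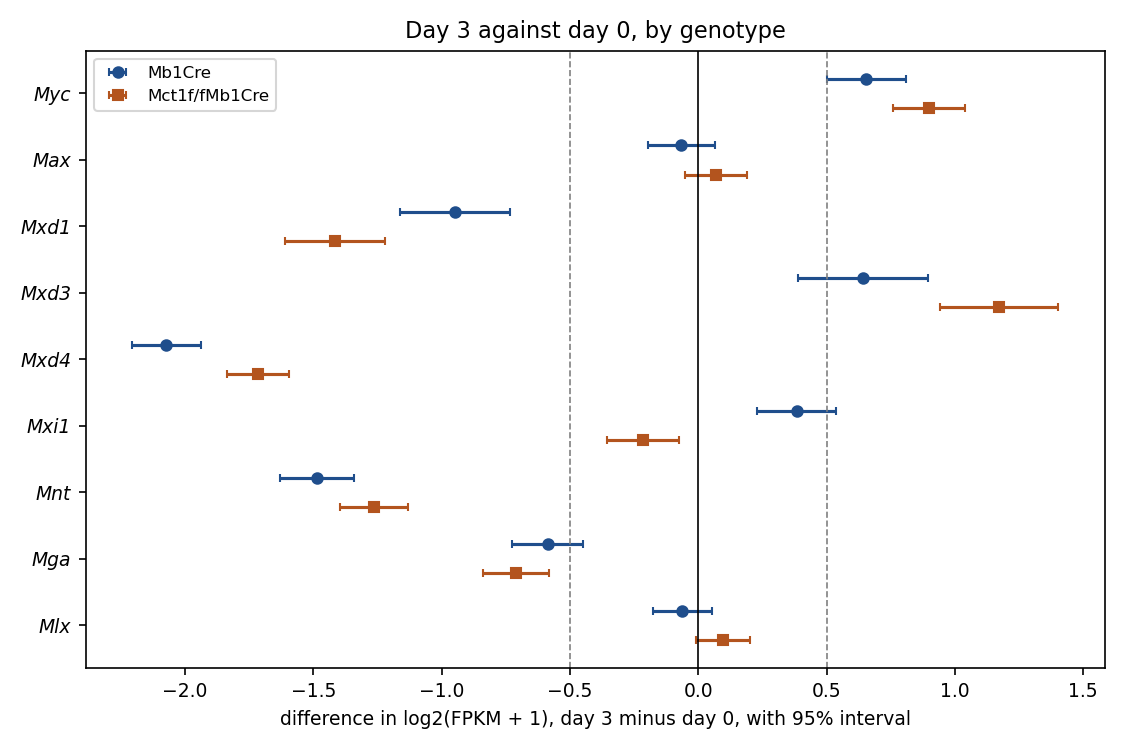
Difference in log2(FPKM + 1) between day 3 and day 0 for the 9 members tested (horizontal axis), with 95% intervals from limma, in Mb1Cre (circles, n = 2 and 2) and Mct1f/fMb1Cre (squares, n = 3 and 2). Dashed lines mark the limit of 0.5 in size; *Mxd4* lay at -2.07 and -1.72, and *Mxi1* at 0.38 and -0.22, on opposite sides of 0.

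*Mxi1*, also known as *Mxd2*, was the member that passed the adjusted p in both genotypes with opposite signs. *Max* and *Mlx* also had opposite signs, but passed in neither genotype. In Mb1Cre it had 9.33 and 10.3 FPKM on day 0 against 13.2 and 12.9 FPKM on day 3, and in Mct1f/fMb1Cre it had 9.82 and 8.75 against 8.01, 7.60 and 7.93 FPKM. The day 3 libraries lay above the day 0 libraries in Mb1Cre and below them in Mct1f/fMb1Cre. The differences were 0.38 (adjusted p = 3.29e-04) and -0.22 (adjusted p = 0.00796), both within the limit of size. Median-of-ratios scaling (0.58) and quantile normalization (0.56) put the Mb1Cre value past the limit, and quantile normalization brought the Mct1f/fMb1Cre value to 0.0038.

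Through these changes *Myc* came to make up most of the summed FPKM of the 8 genes for partners of MAX followed here. The summed FPKM of the 8 partner genes (*Myc*, *Mycn*, 4 *Mxd* genes, *Mnt* and *Mga*) changed less than its parts, from 167 to 183 FPKM in the day 0 libraries to 156 to 174 FPKM on day 3. *Myc* and *Mycn* made up 37.4% and 38.9% of this sum in Mb1Cre and 38.0% and 35.2% in Mct1f/fMb1Cre on day 0, and 66.4% and 68.2% against 69.2%, 70.1% and 68.9% on day 3. No day 3 library overlapped with a day 0 library. The group means were 38.1% ± 1.00 (SD, n = 2), 36.6% ± 1.95 (SD, n = 2), 67.3% ± 1.32 (SD, n = 2) and 69.4% ± 0.644 (SD, n = 3) in the order Mb1Cre day 0, Mct1f/fMb1Cre day 0, Mb1Cre day 3 and Mct1f/fMb1Cre day 3. The ratio of *Myc* and *Mycn* to the 4 *Mxd* genes went from 0.859 to 0.975 in the day 0 libraries to 2.97 and 3.30 in Mb1Cre and 3.51 to 3.56 in Mct1f/fMb1Cre on day 3. These shares describe transcripts, not dimers, and no test was run on them. They leave out *Mycl*, another paralogue of *Myc*, which had 4.87 to 6.05 FPKM on day 0 and 0.08 to 0.25 FPKM on day 3.

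The *Mxd* genes also changed places among themselves. On day 0 *Mxd4* made up 63.1% to 66.0% of their sum, and on day 3 it made up 29.9% and 28.8% in Mb1Cre and 37.6%, 39.0% and 39.3% in Mct1f/fMb1Cre. *Mxi1* went from 12.8% to 14.1% on day 0 to 37.8% and 38.7% in Mb1Cre, where it became the largest, and to 25.0%, 22.1% and 24.0% in Mct1f/fMb1Cre. *Mxd3* went from 4.08% to 5.43% on day 0 to 16.6% and 15.3% in Mb1Cre and 25.3%, 27.8% and 24.7% in Mct1f/fMb1Cre. The summed *Mxd* level on day 3 was 34.9 and 33.5 FPKM in Mb1Cre and 32.1, 34.4 and 33.0 FPKM in Mct1f/fMb1Cre. The sums of the genotypes overlapped, and the shares of *Mxi1*, *Mxd3*, *Mxd4* and *Mxd1* within them did not (*Mxd1* 15.6% and 17.3% against 12.1%, 11.1% and 11.99%).

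**Figure D3:**
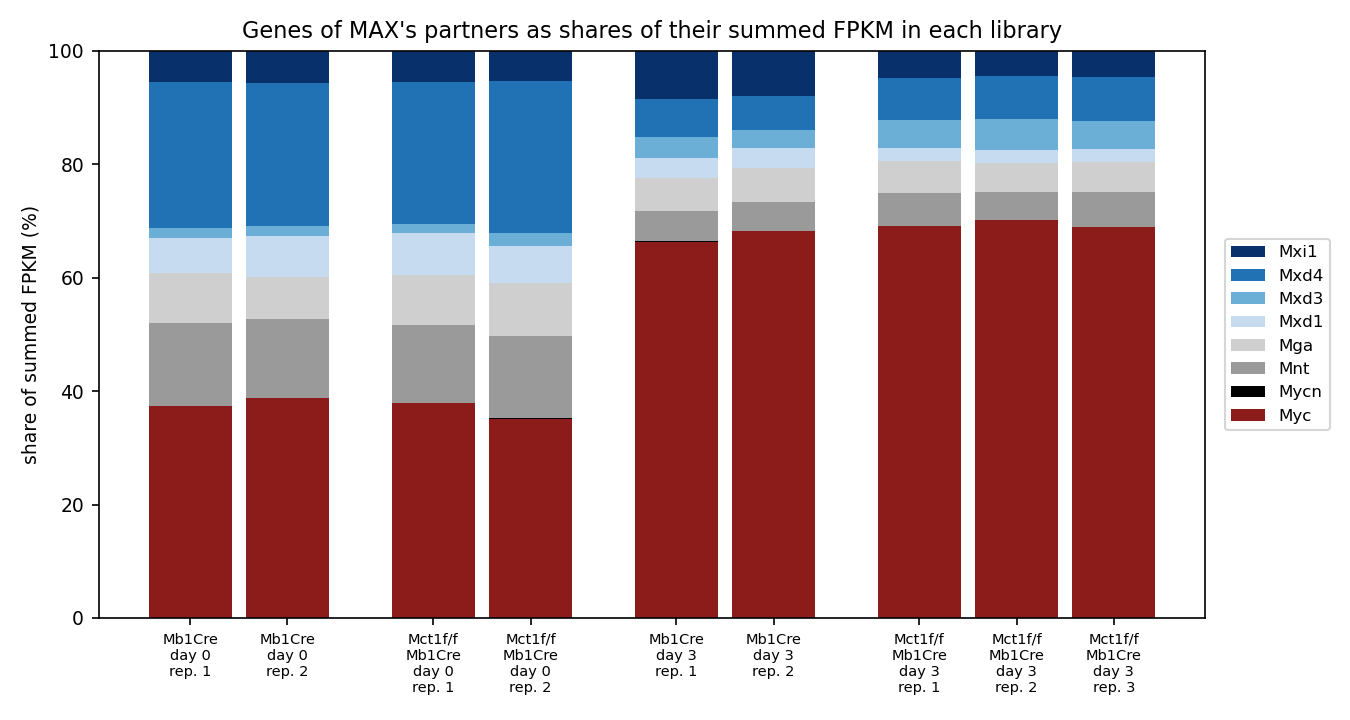
Share of each gene in the summed FPKM of the 8 genes for partners of MAX (vertical axis, percent), 1 bar per library grouped by genotype and day. *Myc* and *Mycn* together took 35.2% to 38.9% on day 0 and 66.4% to 70.1% on day 3, and *Mxi1* and *Mxd3* took different shares in both genotypes on day 3.

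In activated cells the members called between the genotypes were both *Mxd* genes. *Mxi1* was lower in *Mct1*-deficient B cells, at 60.01% of the control level, and *Mxd3* was higher, at 1.58 times the control level. *Mxd1*, *Mxd4* and *Max* passed the adjusted p with differences within the limit of size, and *Myc*, *Mnt*, *Mlx* and *Mga* did not pass it. Thus 1 of 9 members was called higher and 1 lower, beside 0.887% and 1.53% of all tested genes (2.42% in either direction). Without the limit of size, 5 members passed, beside 15.2% of all genes. The libraries did not overlap for 7 of the 9 members, beside 47.1% of all genes.

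*Mxi1*, which encodes a repressor known to antagonise MYC, had 13.2 and 12.9 FPKM in Mb1Cre and 8.01, 7.60 and 7.93 FPKM in Mct1f/fMb1Cre on day 3. All 3 *Mct1*-deficient libraries lay below both controls and below every day 0 library. The log2 difference was -0.67 ± 0.06 (95% interval -0.81 to -0.53, adjusted p = 9.37e-05). It was called with each library left out in turn, and was -0.49, within the limit, with a pseudocount of 5. *Mxi1* lies on chromosome 19 (GRCm38, 53310128 to 53373293) and overlaps the long non-coding *Gm30541*. It has 3 RefSeq starts, and the single FPKM value per library does not separate transcripts from them. The windows at the most upstream start (chr19:53310256-53310555, plus strand) and at the next one (chr19:53329163-53329462, plus strand) are shown since the genotype difference was largest in this gene. ACGTG, the core bound by hypoxia-inducible factors and contained in every CACGTG, was found on either strand in 19.6% of all windows. It is in capitals at -66 in the middle window, was at -25 in the most downstream one, which overlaps it by 18 bases, and was not in the upstream one. Among the members without CACGTG it was also found in *Mga*, at -8.
Mxi1 upstream: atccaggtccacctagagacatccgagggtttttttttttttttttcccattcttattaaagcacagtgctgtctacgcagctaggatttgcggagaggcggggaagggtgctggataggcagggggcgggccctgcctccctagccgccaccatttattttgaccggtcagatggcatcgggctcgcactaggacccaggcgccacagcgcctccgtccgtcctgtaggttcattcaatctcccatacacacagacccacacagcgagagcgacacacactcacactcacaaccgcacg
Mxi1 middle: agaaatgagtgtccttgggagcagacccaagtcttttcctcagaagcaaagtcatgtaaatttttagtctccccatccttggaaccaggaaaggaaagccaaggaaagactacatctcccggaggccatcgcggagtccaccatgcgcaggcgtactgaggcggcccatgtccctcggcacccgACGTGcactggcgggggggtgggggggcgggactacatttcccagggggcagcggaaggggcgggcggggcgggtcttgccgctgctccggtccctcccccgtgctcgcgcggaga

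*Mxd3* (chromosome 13, 55325170 to 55329900), a repressor gene expressed in dividing cells, had 5.80 and 5.11 FPKM in Mb1Cre and 8.12, 9.54 and 8.17 FPKM in Mct1f/fMb1Cre on day 3. The log2 difference was 0.57 ± 0.10 (95% interval 0.34 to 0.80, adjusted p = 0.00442), and the libraries did not overlap. The call rested in part on the second control library, without which the difference was 0.50 with an adjusted p of 0.0570, and with a pseudocount of 5 it was 0.38. The overlapping *Prelid1* had 409 and 367 against 366, 400 and 377 FPKM, a difference of -0.03 (adjusted p = 0.844). The promoter window of *Mxd3* (GRCm38.p6, chr13:55329682-55329981, minus strand) is shown with TTCCCGC in capitals as its reverse complement at -136. TTCCCGC is a sequence bound by E2F factors, and other sequences that they bind were not searched. This motif was searched on both strands and was in 4.60% of all windows and in no other window of the members.
Mxd3: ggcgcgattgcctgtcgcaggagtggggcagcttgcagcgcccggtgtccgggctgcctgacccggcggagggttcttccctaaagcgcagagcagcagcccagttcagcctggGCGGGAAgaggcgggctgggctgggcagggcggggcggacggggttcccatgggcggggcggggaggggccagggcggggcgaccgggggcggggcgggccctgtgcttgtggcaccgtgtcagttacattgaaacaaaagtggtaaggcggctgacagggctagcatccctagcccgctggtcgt

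*Mxd1* had 5.46 and 5.80 FPKM in Mb1Cre against 3.87, 3.80 and 3.96 FPKM in Mct1f/fMb1Cre (log2 difference -0.44, adjusted p = 0.00740), and was past the limit of size with a pseudocount of 0.1 (-0.53). *Mxd4* had 10.4 and 9.63 against 12.1, 13.4 and 13.0 FPKM (0.32, adjusted p = 0.00306). For both the libraries of the genotypes were apart, with *Mxd1* lower and *Mxd4* higher in the *Mct1*-deficient cells. *Max* had 85.7 and 85.5 against 103, 100.3 and 94.1 FPKM (0.21, adjusted p = 0.0272). *Myc* had 104 and 110.3 against 114, 122 and 116 FPKM, and its difference of 0.13 (95% interval -0.01 to 0.27, adjusted p = 0.198) did not pass the test, although the libraries did not overlap. *Mnt* had a difference of 0.17 (0.04 to 0.30, adjusted p = 0.0780), *Mlx* of 0.04 (-0.07 to 0.14) and *Mga* of -0.05 (-0.17 to 0.08). The Y-linked genes were present in all day 3 libraries. The myeloid markers summed to 15.5 and 17.3 FPKM in Mb1Cre and 23.1 to 26.2 FPKM in Mct1f/fMb1Cre. That sum was mostly *Lyz2* (means of 10.8 and 18.2 FPKM). *Lyz2* (log2 difference 0.71, adjusted p = 0.00150) and *Adgre1* (means of 0.51 and 1.42 FPKM, 0.68, adjusted p = 4.25e-04) were called higher in Mct1f/fMb1Cre. *Csf1r*, *Itgam* and *Cd14* were also higher in every Mct1f/fMb1Cre library but did not pass the adjusted p. *S100a8*, *S100a9* and *Mpo* had lower means in Mct1f/fMb1Cre, at 1.91 FPKM or less in every day 3 library, and the genotypes overlapped. The part of the myeloid markers in these differences was not tested.

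On day 0 none of the 9 members was called between the genotypes, beside 0.277% of all genes. The limma test gave 0 members at an adjusted p under 0.05 and 1, *Mlx*, at an unadjusted p under 0.05. Its libraries had 25.5 and 24.1 FPKM in Mb1Cre and 22.5 and 23.0 FPKM in Mct1f/fMb1Cre. The log2 differences of the members lay between -0.12 (*Mlx*) and 0.08 (*Mga*). For *Mxi1* the difference was -0.07 (95% interval -0.22 to 0.08) and for *Mxd3* 0.04 (-0.21 to 0.29). The libraries overlapped for both genes.

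**Figure D4:**
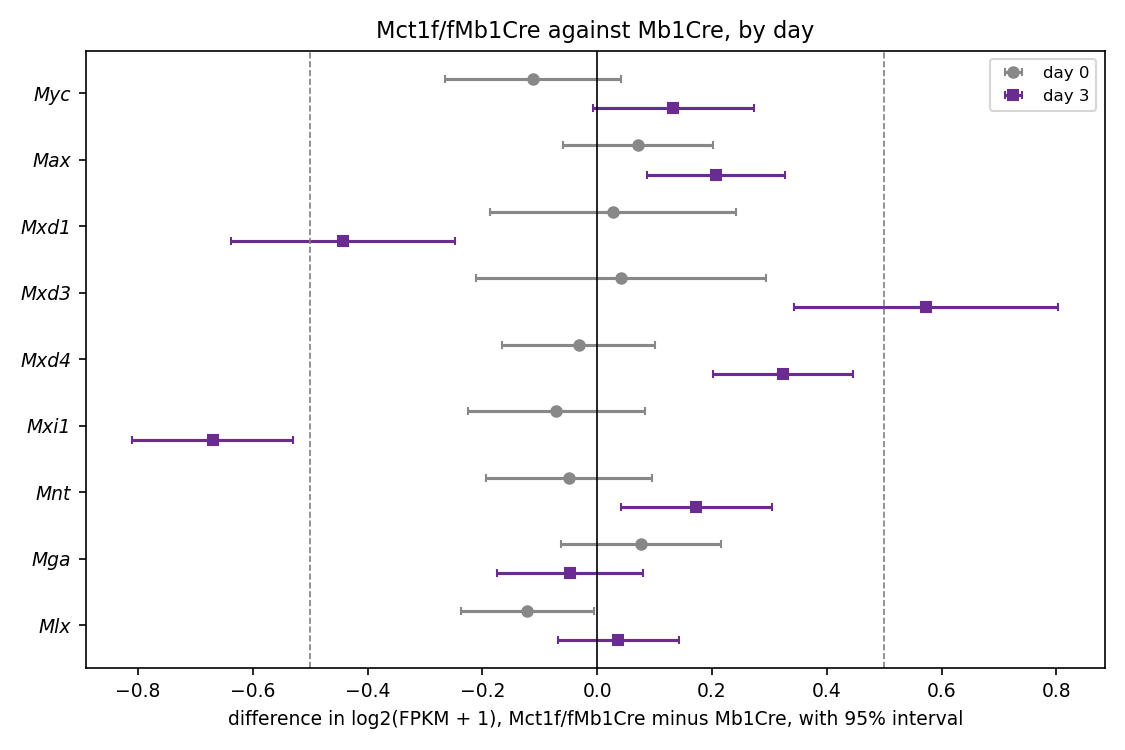
Difference in log2(FPKM + 1) between Mct1f/fMb1Cre and Mb1Cre for the 9 members tested (horizontal axis), with 95% intervals from limma, on day 0 (circles, n = 2 and 2) and day 3 (squares, n = 3 and 2). Dashed lines mark the limit of 0.5 in size; on day 3 *Mxi1* lay at -0.67 and *Mxd3* at 0.57, whereas all day 0 values lay between -0.12 and 0.08.

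Whether activation acted differently in both genotypes was tested by the interaction of genotype and day. Sex was not balanced over the groups and cannot be told apart from this interaction. *Mxi1* was the member called, with an interaction of -0.60 ± 0.09 (95% interval -0.81 to -0.39, adjusted p = 0.00462): it went from 9.80 to 13.1 FPKM in the mean in Mb1Cre and from 9.29 to 7.85 FPKM in Mct1f/fMb1Cre. With a pseudocount of 5 it was -0.44, within the limit. Among all genes 3.23% were called. *Mxd4* (0.36, adjusted p = 0.0238) and *Mxd1* (-0.47, adjusted p = 0.0491) passed the adjusted p only, giving 3 members without the limit of size beside 9.42% of all genes. *Mxd3* had 0.53 with an adjusted p of 0.0574. *Myc* had an interaction of 0.24 (95% interval 0.04 to 0.45, adjusted p = 0.135), which did not pass the test. *Mxd1* was also called without Mb1Cre replicate 2 (-0.61, adjusted p = 0.0147) or Mct1f/fMb1Cre replicate 2 (-0.58, adjusted p = 0.0316) of day 0, and *Mxd3* without the latter (0.68, adjusted p = 0.0253).

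The other genes of the wider network moved strongly with activation. *Mycl*, a further MYC paralogue, had 4.87 to 6.05 FPKM on day 0 and 0.08 to 0.25 FPKM on day 3, a fall in both genotypes (log2 differences -2.40 and -2.65, adjusted p = 1.73e-09 and 3.36e-10). *Mlxip*, which encodes the MLX partner MONDOA, fell from 50.3 to 55.8 FPKM on day 0 to 19.8 to 22.9 FPKM on day 3 (-1.17 and -1.35), whereas *Mlxipl*, for ChREBP, had at most 0.10 FPKM. The known targets of MLX and MONDOA, *Txnip*, a brake on glucose uptake, and *Arrdc4*, its relative, fell as well. *Txnip* went from a mean of 265 to 68.6 FPKM in Mb1Cre and from 229 to 64.9 FPKM in Mct1f/fMb1Cre (-1.93 and -1.81), and *Arrdc4* from 2.98 to 0.145 and from 3.83 to 0.183 FPKM (-1.80 and -2.03). None of these genes was called between the genotypes on either day, beside 0.277% of all tested genes on day 0 and 2.42% on day 3.

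Genes known to be activated by MYC rose with activation nearly throughout the list. Of the 24 genes, all tested, 22 were called higher in Mb1Cre and 23 in Mct1f/fMb1Cre and none lower in either, beside 24.8% and 23.4% of all tested genes called higher. Their median log2 difference was 1.34 and 1.41, beside -0.12 and -0.14 over all tested genes. *Slc7a5*, an amino acid transporter, rose 8.68-fold and 9.32-fold (log2 differences 3.01 and 3.11), *Shmt2*, of mitochondrial one-carbon metabolism, 5.39-fold and 5.78-fold (2.41 and 2.50), and *Ldha*, which makes lactate from pyruvate, 5.11-fold and 5.10-fold (2.35 and 2.34). On day 3 none of the 24 was called between the genotypes, beside 2.42% of all tested genes (median -0.00062, beside -0.01 over all genes). Without the limit of size 6 passed the adjusted p, 3 on each side of 0, beside 15.2% of all genes. Of the genes known to be repressed by MYC, 5 of 6 were tested, and 3 were called lower and 2 higher upon activation in each genotype. Among all tested genes 33.0% were called lower and 24.8% higher in Mb1Cre, and 33.2% and 23.4% in Mct1f/fMb1Cre. The medians of the list were -0.77 and -0.93, beside -0.12 and -0.14 over all tested genes. *Ndrg1*, a stress- and differentiation-related gene, fell from 9.03 to 1.52 FPKM in Mb1Cre and from 9.64 to 1.26 FPKM in Mct1f/fMb1Cre. The 2 that rose were inhibitors of cyclin-dependent kinases, *Cdkn1a* (p21) and *Cdkn2b* (p15), the latter from 0.655 to 3.37 and from 0.390 to 2.45 FPKM. *Cdkn2b* in Mct1f/fMb1Cre was within the limit with a pseudocount of 5 (0.47).

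*Cdkn1a* was the gene of these lists called between the genotypes on day 3. It had 35.6 and 34.4 FPKM in Mb1Cre and 17.5, 17.9 and 18.6 FPKM in Mct1f/fMb1Cre. The *Mct1*-deficient libraries all lay below the controls, at 51.4% of their level (log2 difference -0.92 ± 0.09, adjusted p = 1.26e-04). On day 0 it had 4.88 and 3.56 against 4.22 and 3.81 FPKM, and the interaction was -0.87 (adjusted p = 0.00441). The list of genes repressed by MYC had a median of -0.28 on day 3, beside -0.01 over all genes. *Cdkn1a* was its 1 call among 5 genes tested, beside 2.42% of all tested genes.

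The corepressor and cofactor genes were mixed, as were all tested genes, of which 24.8% were called higher and 33.0% lower in Mb1Cre and 23.4% and 33.2% in Mct1f/fMb1Cre. Of the 14 SIN3 and histone deacetylase genes, 3 were called higher and 3 lower in each genotype, with medians of -0.12 and -0.04, beside -0.12 and -0.14 over all tested genes. *Rbbp7*, a histone-binding subunit, rose 2.70-fold and 2.55-fold, *Sap30* 2.14-fold and 1.56-fold, and *Arid4a* fell to 38.1% and 35.4% of its day 0 level. *Sap30* in Mct1f/fMb1Cre was within the limit under total scaling (0.43) and with a pseudocount of 5 (0.47). Of 17 genes for cofactors and turnover of MYC, 6 were called higher and 2 lower in Mb1Cre, and 5 and 2 in Mct1f/fMb1Cre, with medians of 0.12 and 0.21, beside -0.12 and -0.14 over all tested genes. *Aurka*, a mitotic kinase that also stabilises MYC proteins, rose 8.83-fold and 5.48-fold, *Fbxw7*, the ubiquitin ligase adaptor that marks MYC for degradation, 2.69-fold and 2.63-fold, and *Ruvbl1*, an ATPase of chromatin complexes, 2.25-fold and 2.35-fold. None of either list was called between the genotypes on day 3 or day 0, beside 2.42% and 0.277% of all tested genes. *Aurka* had an interaction of -0.61 (adjusted p = 0.0191), with 5.40 and 3.89 FPKM in Mb1Cre and 6.68 and 6.99 FPKM in Mct1f/fMb1Cre on day 0. This call was lost without Mb1Cre replicate 2 of day 0 (-0.42) and without Mb1Cre replicate 1 or 2 of day 3 (adjusted p = 0.0622 and 0.0704). It was also lost with no filter on low values (adjusted p = 0.0768), with a replicate block (adjusted p = 0.0560) and with a pseudocount of 5 (-0.42).

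The genes that act with MGA in PRC1.6 also moved in both directions, with 4 of 10 called higher and 3 lower upon activation in each genotype, beside 24.8% and 33.0% of all tested genes in Mb1Cre and 23.4% and 33.2% in Mct1f/fMb1Cre. The median of the list was 0.33 and 0.34, beside -0.12 and -0.14 over all tested genes. *Tfdp1*, the partner of E2F factors, rose 5.67-fold and 5.41-fold, *Cbx3*, a heterochromatin protein, 1.98-fold and 1.70-fold, and *Ring1*, a ubiquitin ligase, fell to 53.1% and 54.3% of its day 0 level. *L3mbtl2*, a chromatin reader of the complex, had 12.4 and 11.8 FPKM on day 0 against 22.4 and 21.1 FPKM on day 3 in Mb1Cre, and 10.4 and 12.3 against 30.7, 30.2 and 29.5 FPKM in Mct1f/fMb1Cre. It rose in both genotypes (1.80-fold and 2.66-fold), and more so in the *Mct1*-deficient cells (interaction 0.54, adjusted p = 0.00833). Without Mct1f/fMb1Cre replicate 1 of day 0 the interaction was 0.43, and with a pseudocount of 5 it was 0.46, both within the limit. On day 3 its libraries were apart with a difference of 0.45 (adjusted p = 0.00131), within the limit. The germline genes that PRC1.6 is known to silence stayed low, with 9 of 12 in the table, none past the filter, at most 1.13 FPKM for *Stag3* and at most 0.30 FPKM for the others.

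**Figure D5:**
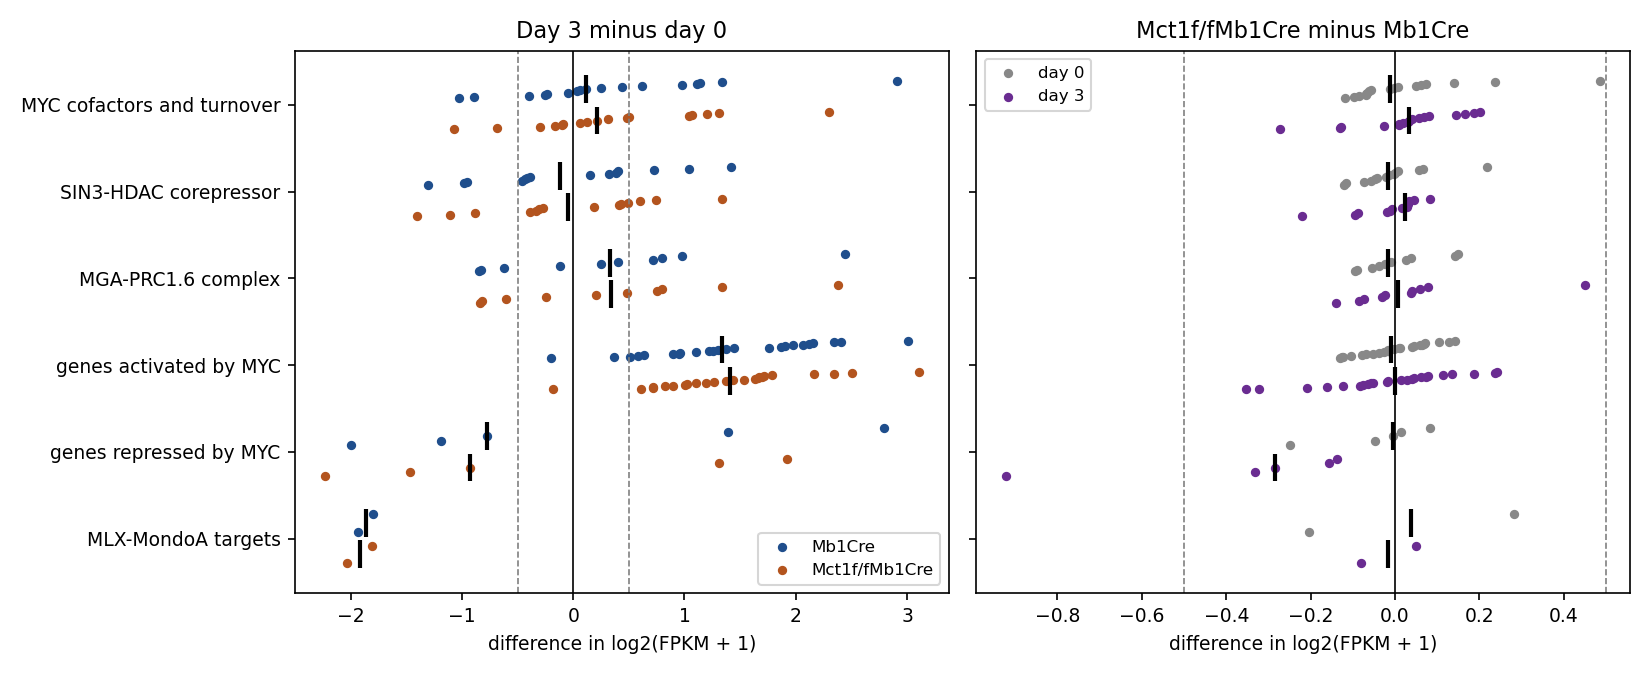
Differences in log2(FPKM + 1) of the tested genes of 6 lists, day 3 minus day 0 by genotype (left) and Mct1f/fMb1Cre minus Mb1Cre by day (right). Points are genes, black bars list medians and dashed lines the limit of 0.5 in size; the genes activated by MYC had medians of 1.34 and 1.41 for activation, and *Cdkn1a* lay at -0.92 for genotype on day 3.

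The tested genes whose pattern over the 9 libraries was nearest to that of *Myc*, by Euclidean distance between centred log2 values, were *Tmem39b* (distance 0.167), *Bop1* (0.181) and *Plekhm2* (0.187). *Bop1*, a ribosome biogenesis gene of the list of genes activated by MYC, had 32.2, 33.3, 29.7 and 30.1 FPKM in the day 0 libraries, and 48.3 and 50.8 FPKM in Mb1Cre and 55.3, 58.1 and 56.2 FPKM in Mct1f/fMb1Cre on day 3. *Tmem39b* went from 13.5 to 14.6 FPKM on day 0 to 23.7 to 26.9 FPKM on day 3, and *Plekhm2* from 10.4 to 11.9 to 17.5 to 20.3 FPKM.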

How the data were processed

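RNA of naïve and activated splenic B cells was sequenced in 9 libraries of 4 groups, grouped by their labels. FPKM values were deposited by the authors, rounded to 2 decimals, for 17596 genes. The submitters' processing notes name Bowtie2 and GRCm38 (mm10); the counting tool, the strand and further filters are not given in the sources used here. The low values showed no common step, so the depth of the libraries is unknown, no counting interval is given, and precision rests on 2 or 3 libraries per group. FPKM were not rescaled, and the libraries' sums (477079 to 491459 on day 0, 547355 to 563586 on day 3) differ between days.

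Genes that averaged 1 FPKM or more were tested on log2(FPKM + 1), which understates the changes of low genes, with limma 3.58.1 in R 4.3.3. The fit had 1 mean per group over all 9 libraries, trended empirical Bayes variances, and p-values adjusted by Benjamini-Hochberg over the 10823 genes. The 5 comparisons were day 3 against day 0 in each genotype, the genotypes on each day and their interaction. The procedure was tested on simulated data. The members and gene lists were chosen with earlier results of these data known, and the activation contrasts share their day 0 or day 3 libraries with the genotype contrasts. The genes named were all members, up to 3 genes per list with the largest activation change called in both genotypes, the list genes called by genotype or interaction, *Slc16a1*, marker genes and the 3 genes nearest to *Myc*. *Prelid1*, *Stag3* and the genes that overlap members were named after their values were seen. Coordinates, overlaps and promoter windows come from RefSeq tables of GRCm38.p6; motifs were searched on both strands in Python 3.11.15. Alternatives were pseudocounts of 0.1 and 5, no filter or a mean of at least 5 FPKM, 3 further scalings, a log2 limit of 1 or none, no trend, only the 2 groups compared, each library left out, and a replicate block. The crossed block was added after seeing the data.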

Additional observations from a re-analysis of the deposited data

Results flagged for a closer look

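For 4 of the members and list genes the effect of activation differed between the genotypes by the interaction test of limma. They were *Mxi1* (log2 interaction -0.60, adjusted p = 0.00462), *Cdkn1a* (-0.87, adjusted p = 0.00441), *Aurka* (-0.61, adjusted p = 0.0191) and *L3mbtl2* (0.54, adjusted p = 0.00833). Among all tested genes 3.23% were called. Marker genes were not counted here, and of these *Jchain* (-1.44, adjusted p = 0.00246), *Hba-a1* (-0.91, adjusted p = 0.00410), *Lyz2* (0.57, adjusted p = 0.0466) and *Adgre1* (0.51, adjusted p = 0.0289) were also called. Sex was not balanced over the groups of this contrast and cannot be told apart from it. The call of *Aurka* was lost with a replicate block (adjusted p = 0.0560), with the crossed block (0.0514), with no filter on low values (0.0768), with a pseudocount of 5 (-0.42), and without Mb1Cre replicate 2 of day 0 (-0.42) or Mb1Cre replicate 1 or 2 of day 3 (adjusted p = 0.0622 and 0.0704). *L3mbtl2* was within the limit of size with a pseudocount of 5 (0.46) and without Mct1f/fMb1Cre replicate 1 of day 0 (0.43), and *Mxi1* with a pseudocount of 5 (-0.44). The libraries of both genotypes were apart on day 3 for all 4 genes. On day 0 they were also apart for *Aurka*, with a genotype difference of 0.49 (adjusted p = 0.0843), and they overlapped for *Mxi1*, *Cdkn1a* and *L3mbtl2*.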

How the results depend on the processing

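The 6 members called upon activation in each genotype numbered 6 with any library left out. In Mb1Cre 4 members were called with a pseudocount of 5 or total scaling, 5 under quantile normalization, 7 with no limit and 2 with a log2 limit of 1. Over all tested genes the calls went from 6258 to 4819, 6494, 6076, 9152 and 3191 in the same order. Under quantile normalization *Myc* (0.495) and *Mga* (-0.42) lost the call and *Mxi1* (0.56) gained it. Under median-of-ratios scaling *Mga* (-0.39) lost it and *Mxi1* (0.58) gained it. In Mct1f/fMb1Cre 7 members were called with no limit and 4 with a limit of 1, while the calls over all genes went from 6120 to 9258 and 2994. On day 3 the 2 members called by genotype became 0 with a pseudocount of 5 or a limit of 1, 5 with no limit, and 1 to 2 with a library left out, the lowest without the second control library. Over all tested genes these calls went from 262 to 120 with a pseudocount of 5, 54 with a limit of 1 and 1650 with no limit. The 1 member called in the interaction became 0 with a pseudocount of 5 or a limit of 1, 2 with a pseudocount of 0.1, a mean of at least 5 FPKM or total scaling, 3 with no limit, and 1 to 3 with a library left out. Over all tested genes the interaction calls went from 350 to 156 with a pseudocount of 5, 56 with a limit of 1 and 1020 with no limit. They numbered 406 with a pseudocount of 0.1, 247 of 8430 with a mean of at least 5 FPKM and 349 under total scaling. With the replicate number as a block (replicate block) 6, 6, 2, 0 and 1 members were called for activation in Mb1Cre and Mct1f/fMb1Cre, genotype on day 3 and day 0, and interaction, as without it, while *Aurka* lost its interaction call (adjusted p = 0.0560). Same-numbered libraries deviated with correlations of -0.122 to 0.0642. In a group of 2 libraries both deviations mirror each other, so these values cannot settle whether libraries were paired. The crossed pairing gave 2 members for the interaction. Against the *Mxd* genes alone, *Myc* and *Mycn* made up 49.1%, 47.6%, 75.8% and 78.0% in Mb1Cre and Mct1f/fMb1Cre on day 0 and then on day 3. With a library left out the share over the summed partner genes was 37.4% to 38.9%, 35.2% to 38.0%, 66.4% to 68.2% and 69.0% to 69.6% in the same order. Signs reversed only for values that were not called in the main comparison. For activation these were *Max* (0.15 under median-of-ratios scaling and -0.15 to 0.014 with a library left out in Mb1Cre, -0.11 under total scaling and -0.10 under quantile normalization in Mct1f/fMb1Cre), *Mlx* (0.14 under median-of-ratios scaling in Mb1Cre, -0.074 under total scaling in Mct1f/fMb1Cre) and *Mxi1* (0.0038 under quantile normalization in Mct1f/fMb1Cre). Between the genotypes on day 0, with a library left out, they were *Max* (-0.0089 to 0.15), *Mxd1* (-0.11 to 0.16), *Mxd3* (-0.11 to 0.19) and *Mxi1* (-0.15 to 0.0040). Of the list genes' values under the alternatives, 892 kept direction and call, and 21 kept the direction without the call. The causes were not tested. With 2 or 3 libraries per group and no read counts, small differences and the low *Mycn* and *Mlxipl* could not be resolved.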
